A study of Homo sapiens with 4 samples.

Results

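Cholesterol synthesis, uptake and control genes were followed in HeyC2 and SKOV3, a pair of established human ovarian cancer cell lines. The group held 27 genes, chosen by symbol from the 26506 genes listed in the expression tables. The rule uses no measured value, but the members were chosen with earlier results of these data known. It comprised 19 enzymes that build cholesterol and 8 genes that sense, control, take up or move it. RNA sequencing was run on 4 libraries of total RNA, 1 per condition. In each line, the control cells carried an empty plasmid and are labelled as wild type, and the TET1 cells carried pCMV6/TET1, which drives the TET1 gene from a viral promoter. TET1 is a dioxygenase that oxidizes methylated cytosine. Both kinds of cell received 3 μg of plasmid by lipofection and were then selected in 400 μg/ml Geneticin, so the transfection and the selection were shared by the groups. Whether the selected cells were pools or clones is not given in the sources used here. With 1 library per condition there is no replicate check, and no p-value is given.

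Cells build cholesterol from acetyl-CoA through mevalonate, the farnesyl units made from it, squalene and lanosterol, and the later enzymes of this route sit in the membrane of the endoplasmic reticulum. When sterol in that membrane is low, SCAP carries the precursor of the transcription factor SREBP2, encoded by SREBF2, to the Golgi, where it is cut and freed to switch on the enzymes. When sterol is high, the INSIG proteins hold SCAP back, and the enzymes are made less. Proliferating cancer cells use the route both for membranes and for the prenyl groups that anchor small GTPases.

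Levels are in FPKM, fragments per kilobase of transcript at a fixed total of mapped fragments, which can be compared between genes. In the deposited columns GAPDH is the same in control and TET1 cells of each line, at 5417 FPKM in HeyC2 and 2248 FPKM in SKOV3, and the other TET1 values lie on a grid scaled by 3.23 in HeyC2 and 1.35 in SKOV3. As deposited, the median gene was 3.33-fold higher in TET1 than in control cells of HeyC2 (over 11582 genes at or above 1 FPKM in both) and 1.502-fold higher in SKOV3 (over 12030 genes). Each TET1 column was divided by its line's median ratio, which gives the scaled FPKM used below, and a change is the log2 ratio of scaled TET1 to control FPKM after 1 was added to both. A gene was measured where its mean FPKM was at least 1, and a change of at least 1.5-fold (0.585 on the log2 scale) was counted as higher or lower. The median change of all measured genes was then 0.02 in HeyC2 and 0.04 in SKOV3. In bulk RNA, fewer cells that make a transcript and less transcript per cell cannot be told apart.

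The steps between FPKM values placed the libraries at 6600000 to 7320000 fragments. Over 15212 genes, log2 levels correlated with Pearson r of 0.959 between the HeyC2 libraries, 0.926 between the SKOV3 libraries and 0.751 to 0.809 between the lines. TET1 itself was at 0.20 FPKM in HeyC2 control and 1.68 FPKM as deposited in HeyC2 TET1 (0.50 scaled), and at 0.43 and 2.42 FPKM (1.61 scaled) in the SKOV3 pair. About 14 and 32 fragments lay behind the HeyC2 values and 29 and 112 behind the SKOV3 values. In HeyC2 the TET1 gene was thus below the limit for a measured gene. PAX8, a Müllerian lineage factor, was present in all 4 libraries (74.6 to 189 scaled FPKM), while WT1 reached at most 0.47 and MUC16 at most 0.05. Some markers of the SKOV3 TET1 library stood far from its control. Its keratin KRT7 was at 19.7 scaled FPKM against 1537 in its control, KRT19 at 0.41 against 255.1, and the 6 fibroblast markers summed to 75.9 TPM (FPKM rescaled to the same total in every library) against 3.93 TPM, led by COL1A1, with DCN and PDGFRB listed at 0. Other epithelial markers of this library stayed near its control, with KRT8 at 693.8 scaled FPKM against 559.9, KRT18 at 228.8 against 192.8 and EPCAM at 14.4 against 15.4. In HeyC2, KRT7 was at 1091 scaled FPKM in TET1 against 289.7 in control. The fibroblast sum was 4.44 and 6.23 TPM in HeyC2 control and TET1, the 5 leukocyte markers summed to 1.16 to 1.34 TPM in all 4 libraries, and CD3E was listed at 0 in each. The part of these markers in the changes described below was not tested.

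Of the 27 genes, 26 were measured in both lines. The exception was NPC1L1, the intestinal cholesterol importer, at 0.11 and 0.09 FPKM in the HeyC2 and SKOV3 controls, from about 4 and 3 fragments, and listed at 0 in both TET1 libraries. The other genes spanned a wide range. In HeyC2 control the most abundant was FDPS (430.7 FPKM), followed by FDFT1 (259.5) and ACAT2 (200.3), and the least abundant measured genes were TM7SF2 (4.74) and MYLIP (2.66). In SKOV3 control FDFT1 (237.7 FPKM) stood before FDPS (159.5) and ACAT2 (112.9), and EBP (3.00) was the least abundant. FDPS alone made up 18.6% of the group's summed FPKM in HeyC2 control, and FDFT1 19.2% in SKOV3 control. The 27 genes lie on 16 chromosomes, with 0 on the short arm of chromosome 12.

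**Figure D1:**
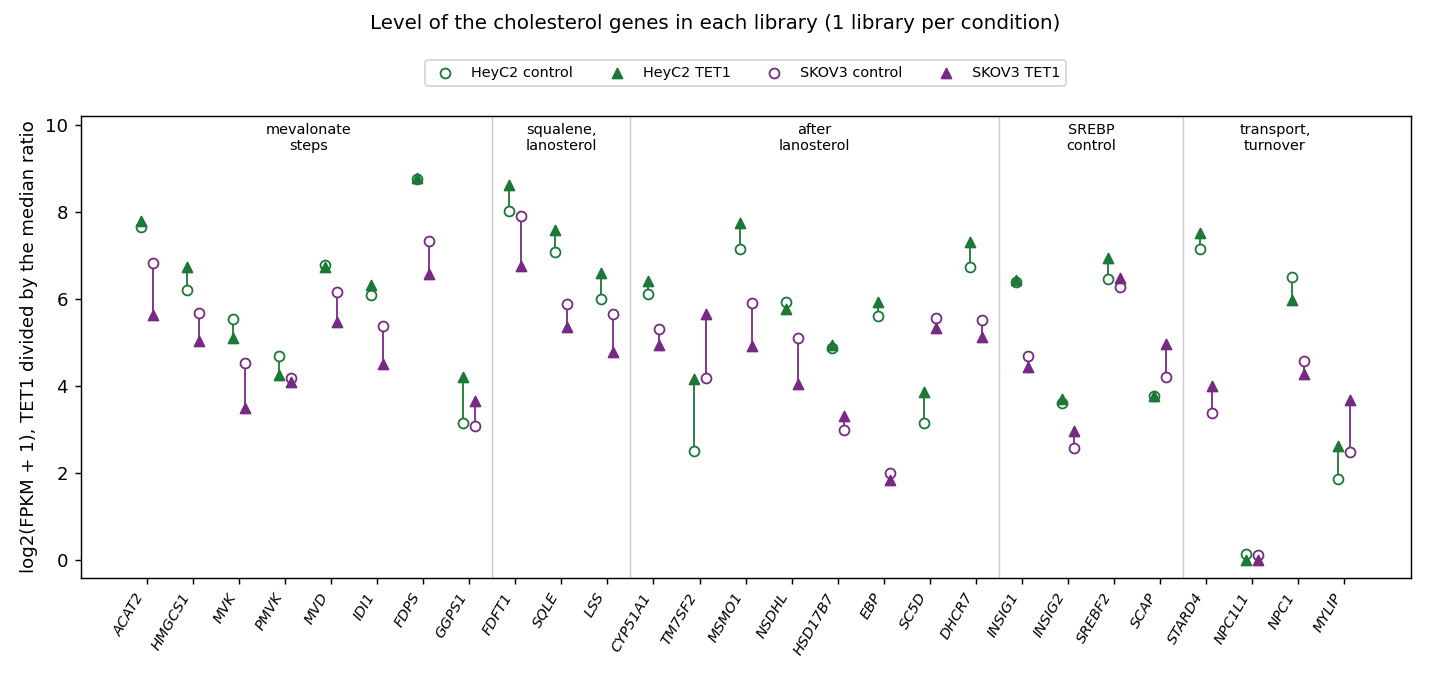
Level of the 27 cholesterol genes in the 4 libraries, as log2(FPKM + 1) with TET1 columns divided by the median ratio of their line. Open circles are control and triangles TET1 libraries, green for HeyC2 and purple for SKOV3, and lines join the libraries of a line. Most enzymes sit lower in SKOV3 than in HeyC2, and the purple triangles of 16 of 19 enzymes lie below their controls.

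The median change of this group was above the median ratio in HeyC2 and below it in SKOV3. Single genes were mixed, with 7 of 26 above the median ratio in both lines and 5 below it in both. The shares of all genes with these signs were not computed, so these counts are not read as a trait of the group. In HeyC2, 20 of 26 measured genes were above the median ratio and 6 below, against 6133 above among all 11859 measured genes. Their median change was 0.30 against 0.02 for all genes. At the 1.5-fold limit, 7 of the 26 were higher, 26.9%, against 13.1% of the 11859 genes measured in HeyC2, and 0 were lower, against 8.43%. The count of 7 was 4 with upper-quartile scaling, 3 with a pseudocount of 5, 11 on deposited values minus the all-gene median and 26 on deposited values without centring. In SKOV3, 8 genes were above and 18 below, against 6807 above and 6099 below among all 12906 measured genes. The median change of the 26 genes there was -0.34 relative to the median ratio. It was 0.23 on the deposited scale without centring, on which the median of all genes was 0.59. At the same limit, 10 of the 26 were lower in SKOV3 TET1, 38.5%, against 16.3% of 12906 genes, and 4 were higher, 15.4%, against 22.4%. Without centring of the deposited values, these counts were 1 lower and 8 higher. The downward shift in SKOV3 lay with the enzymes. The 19 enzymes had a median change of 0.30 in HeyC2 and -0.64 in SKOV3, where 16 of 19 were below their control and all 10 of the genes lower by 1.5-fold were enzymes. The 7 other measured genes had medians of 0.09 and 0.41, with 0 lower by 1.5-fold in either line, against 8.43% and 16.3% of all genes. Among so few genes, a count of 0 is not far from these shares.

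**Figure D2:**
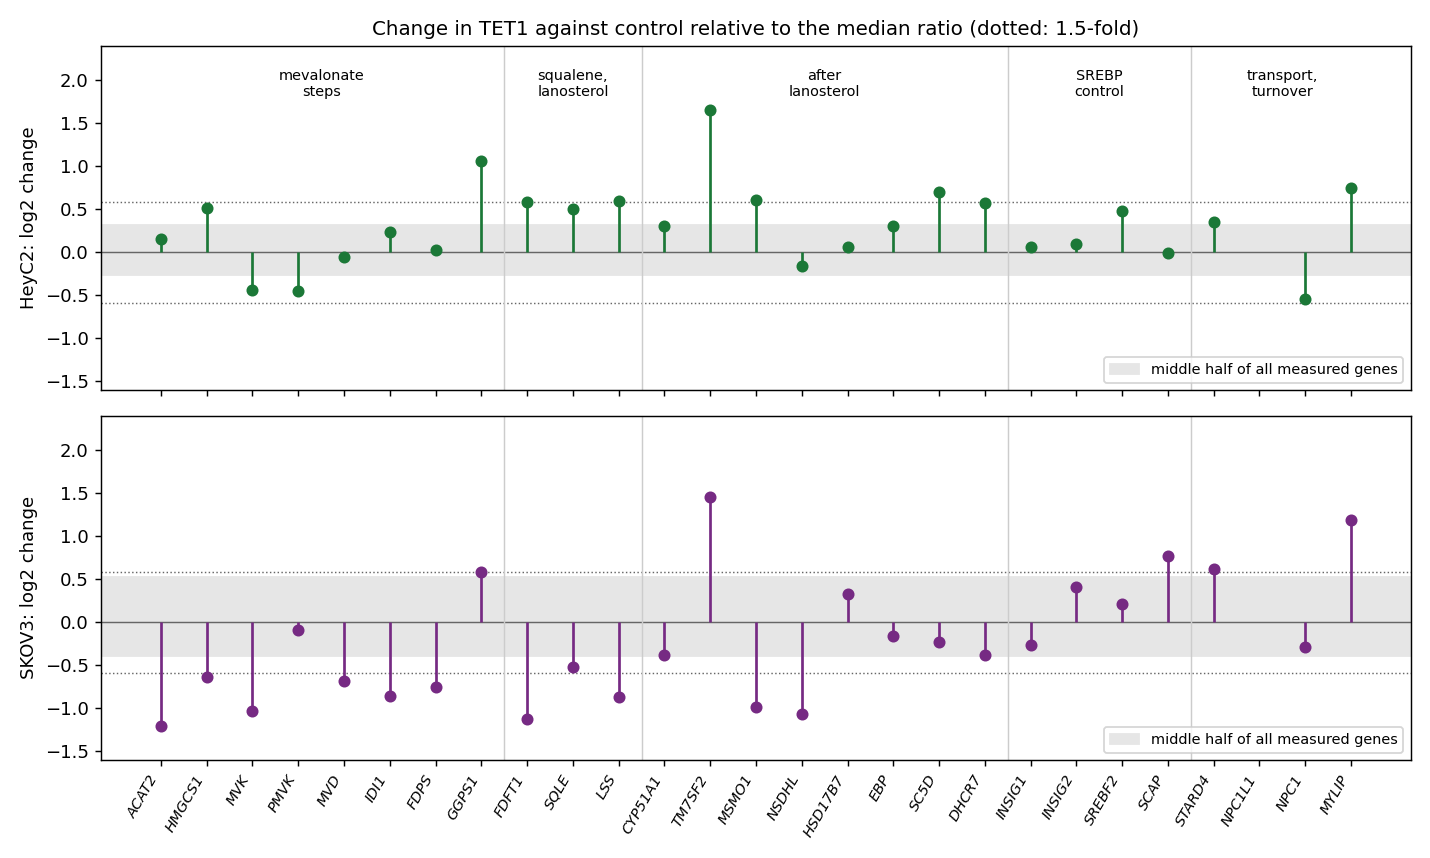
Log2 change in TET1 against control, relative to the median ratio, for each gene in HeyC2 (top) and SKOV3 (bottom), with dotted lines at 1.5-fold and a grey band from the lower to the upper quartile of all measured genes. In HeyC2 more points lie above the band than below it, and in SKOV3 most enzymes of the mevalonate, squalene and lanosterol steps lie below it, while TM7SF2 and MYLIP stand high in both.

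The enzymes from acetyl-CoA to farnesyl diphosphate were near the median in HeyC2 and lower in SKOV3. Their 8 members had a median change of 0.09 in HeyC2 and -0.72 in SKOV3. ACAT2, which joins acetyl-CoA units in the cytosol, was at 200.3 and 222 scaled FPKM in HeyC2 control and TET1 and at 112.9 and 48.5 in SKOV3, so it was near its control in HeyC2 (0.15) and 2.301-fold lower in SKOV3 (-1.20, with 3.47% of measured genes lower still). HMGCS1, the cytosolic synthase that makes HMG-CoA, was at 73.5 and 105 scaled FPKM in HeyC2 and at 50.6 and 32.1 in SKOV3. Its change was 0.52 in HeyC2, under the 1.5-fold limit, and -0.64 in SKOV3, past it. FDPS, which makes farnesyl diphosphate and is the target of the bisphosphonate drugs, was at 430.7 and 438 scaled FPKM in HeyC2, a change of 0.03, and at 159.5 and 94.2 in SKOV3, a change of -0.75.

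The enzymes between these points followed the same course in SKOV3. Of the mevalonate kinase MVK, the decarboxylase MVD and the isomerase IDI1, all were lower by more than 1.5-fold there, with changes of -1.03, -0.68 and -0.86. In HeyC2 their changes were -0.44, -0.05 and 0.24. PMVK, the kinase that acts after MVK, departed from them, at 25.03 and 18.1 scaled FPKM in HeyC2 (-0.44) and at 17.2 and 16.1 in SKOV3 (-0.09), though only about 101 to 156 fragments lay behind each value. GGPS1 branches off this route to make the geranylgeranyl groups that anchor small GTPases in membranes. It was at 7.88 and 17.5 scaled FPKM in HeyC2, 2.09-fold higher in TET1 cells (1.06), and at 7.45 and 11.6 in SKOV3, where its change of 0.58 was just under the limit. It was the only mevalonate-stage gene above the median ratio in SKOV3.

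The squalene and lanosterol steps showed the widest separation between the lines. All 3 enzymes were above the median ratio in HeyC2 (0.51 to 0.59) and below it in SKOV3 (-1.13 to -0.52). FDFT1, squalene synthase and the entry into the sterol branch, had 259.5 FPKM in HeyC2 control and 1304 as deposited in HeyC2 TET1, or 391 scaled, against 237.7 in SKOV3 control and 162.5 as deposited in SKOV3 TET1, or 108 scaled. The controls were therefore close, and the TET1 libraries were apart. Its change was 0.59 in HeyC2 and -1.13 in SKOV3, and the 95% counting intervals of the log2 ratio, 0.53 to 0.65 and -1.23 to -1.05, cover the sampling of fragments and no variation between cultures. LSS, which folds squalene epoxide into lanosterol (chr21:47608055-47648738 on GRCh37, minus strand), was at 63.2 and 95.9 scaled FPKM in HeyC2 (0.59) and at 49.2 and 26.5 in SKOV3 (-0.87). SQLE, the squalene epoxidase that is a slow step of the route, was at 134.9 and 192 scaled FPKM in HeyC2 (0.51) and at 58.0 and 40.2 in SKOV3 (-0.52), under the limit in both. The HeyC2 changes of FDFT1 and LSS were both 1.51-fold, at the edge of the limit of 1.5-fold.

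After lanosterol the enzymes were less uniform. Their 8 members had a median change of 0.44 in HeyC2 and -0.31 in SKOV3. MSMO1, which removes methyl groups from the sterol ring (chr4:166248819-166264316 on GRCh37, plus strand), resembled the squalene steps, with 140.9 and 215 scaled FPKM in HeyC2 (0.60, 1.52-fold higher) and 59.4 and 29.4 in SKOV3 (-0.99, 1.99-fold lower). NSDHL, the dehydrogenase that works with MSMO1, was at 60.45 and 54.1 scaled FPKM in HeyC2 (-0.16) and at 33.75 and 15.6 in SKOV3 (-1.07). DHCR7, the last reductase before cholesterol, was at 106.1 and 158 scaled FPKM in HeyC2, a change of 0.57 just under the limit, and at 45.0 and 34.2 in SKOV3 (-0.38). The lanosterol demethylase CYP51A1, the human counterpart of the target of azole antifungals, was within 1.5-fold in both lines, at 0.30 and -0.39. SC5D, a sterol desaturase, was higher in HeyC2 TET1 (7.96 and 13.6 scaled FPKM, 0.70) and near its control in SKOV3 (46.5 and 39.6, -0.23).

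TM7SF2, a sterol reductase of the inner nuclear membrane and the endoplasmic reticulum (chr11:64879317-64883856 on GRCh37, plus strand), stood apart from the other enzymes. It had 4.74 FPKM in HeyC2 control and 56.8 as deposited (17.04 scaled) in HeyC2 TET1, and 17.2 and 73.9 (49.2 scaled) in SKOV3. It had the highest change of the group in both lines, 3.14-fold higher in HeyC2 (1.65) and 2.75-fold higher in SKOV3 (1.46), above 98.8% and 94.6% of measured genes. About 50 and 166 fragments lay behind the HeyC2 values and 174 and 517 behind the SKOV3 values, with 95% counting intervals of 1.37 to 2.32 and 1.26 to 1.77 for the log2 ratio. In SKOV3 it was the only enzyme past the limit upwards. HSD17B7, a ketosteroid reductase, and EBP, a sterol isomerase, were within 1.5-fold, with 0.06 and 0.30 in HeyC2 and 0.33 and -0.16 in SKOV3. EBP in SKOV3 rests on about 21 and 19 fragments, with a counting interval of -1.18 to 0.76, so a change of less than that was not detectable at this depth. HSD17B7 and FDPS also have pseudogene copies in the genome, and how the authors' quantification shared fragments between copies is not known here.

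Of the 4 genes that control SREBP2, 3 were above their SKOV3 control and INSIG1 was below it. None was lower by 1.5-fold there, which among 4 genes is not far from the 16.3% of all genes. SREBF2 was at 87.6 and 122 scaled FPKM in HeyC2 (0.48) and at 76.2 and 88.1 in SKOV3 (0.21), above its control in both lines and past the limit in neither. INSIG1, which retains SCAP and is itself switched on by SREBP2, was at 82.8 and 86.4 scaled FPKM in HeyC2 (0.06) and at 24.9 and 20.6 in SKOV3 (-0.26). SCAP, the escort of SREBP2, was at 12.7 FPKM in both HeyC2 libraries (0.00) and at 17.5 and 30.5 scaled FPKM in SKOV3, 1.70-fold higher (0.77). It was the only gene of the group whose change was higher in SKOV3 than in HeyC2 by at least 1.5-fold, although this difference turned to -0.32 on the deposited scale without centring. INSIG2 was at 11.2 and 12.03 scaled FPKM in HeyC2 (0.09) and at 4.96 and 6.90 in SKOV3 (0.41).

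Of the transport and turnover genes, MYLIP was higher in TET1 cells of both lines. MYLIP encodes a ubiquitin ligase that sends lipoprotein receptors to degradation and is switched on by the oxysterol receptors. It was at 2.66 and 5.17 scaled FPKM in HeyC2, 1.69-fold higher (0.75), and at 4.61 and 11.8 in SKOV3, 2.28-fold higher (1.19). About 57 and 103 fragments lay behind the HeyC2 values, with a counting interval of 0.48 to 1.45. STARD4, a cytosolic sterol carrier, was at 141.5 and 182 scaled FPKM in HeyC2 (0.36) and at 9.53 and 15.2 in SKOV3 (0.62, 1.54-fold higher). It was thus higher in SKOV3 TET1, where most enzymes were lower. NPC1, which releases cholesterol from lysosomes, was below its control in both lines, at 90.5 and 61.8 scaled FPKM in HeyC2 (-0.54) and at 22.8 and 18.4 in SKOV3 (-0.29), and past the limit in neither.

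Set side by side, 19 of 26 genes had a higher change in HeyC2 than in SKOV3, against 5770 of all 11082 genes measured in both lines. The median of the difference, SKOV3 change minus HeyC2 change, was -0.62 for the 26 genes and -0.91 for the 19 enzymes, against -0.04 for the 11082 genes measured in both lines. At 1.5-fold, 14 genes had a lower change in SKOV3, all of them enzymes, against 21.4% of all genes, and 1 (SCAP) a higher change, against 19.3%. By sign, 13 of 26 were above the median ratio in HeyC2 and below it in SKOV3, against 23.6% of all genes, and 1 gene was the other way round. FDFT1, LSS and MSMO1 passed 1.5-fold in both directions, higher in HeyC2 and lower in SKOV3. All 3 missed the limit in HeyC2 with upper-quartile scaling, and FDFT1 and LSS also with a pseudocount of 5. TM7SF2 and MYLIP were higher by 1.5-fold in both lines, 2 of 26 or 7.69%, against 3.91% of all genes, although MYLIP missed the limit in HeyC2 with a pseudocount of 5. Across the 26 genes, which share their libraries, the changes in HeyC2 and SKOV3 correlated with Pearson r of 0.42 and a Spearman rank correlation of 0.21, and across all 11082 genes both were 0.15. None of these differences between the lines could be tested against replicate error.

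**Figure D3:**
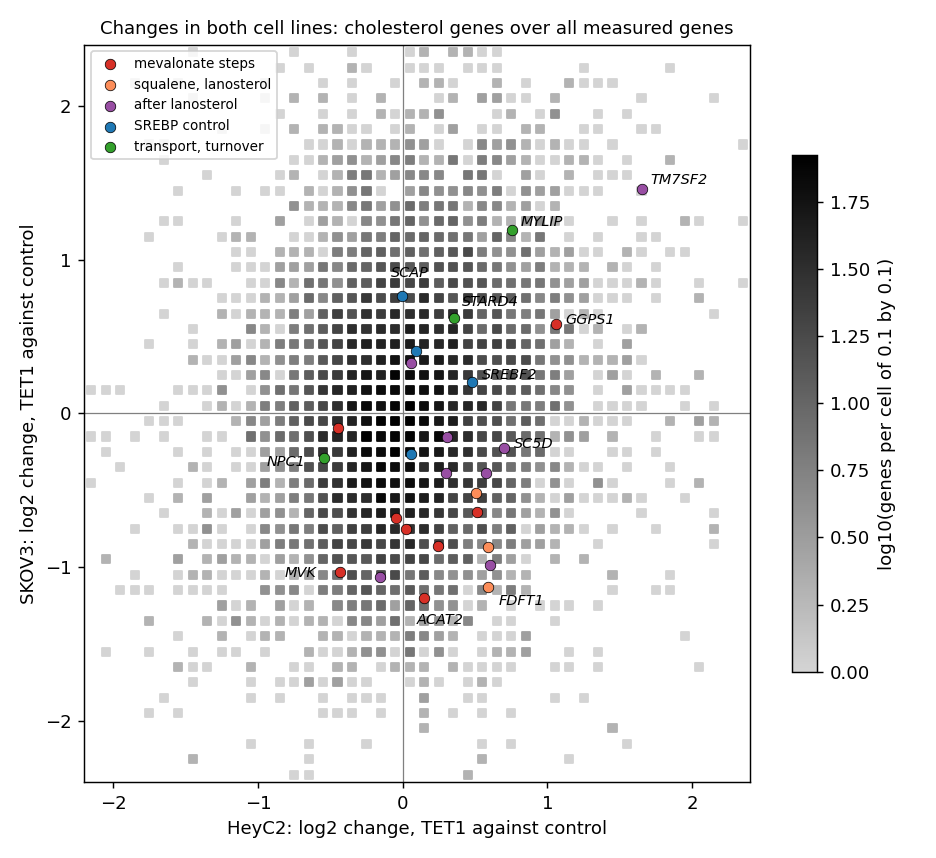
Log2 change in HeyC2 (x axis) against that in SKOV3 (y axis) for the 26 measured genes, coloured by role, over all genes measured in both lines (grey squares, darker where more genes fall). The enzymes of the squalene steps lie at the lower right, with 13 of 26 genes in that quadrant, and TM7SF2 and MYLIP lie at the upper right.

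As a share of all transcripts, the group's sum differed in the same direction, though a sum is led by its most abundant genes. The 27 genes summed to 4791 TPM in HeyC2 control and 5734 in HeyC2 TET1, a ratio of 1.197, and to 2615 and 2092 in SKOV3, a ratio of 0.80. Most of the SKOV3 fall lay with FDFT1 (502.7 to 265.0 TPM), ACAT2 (238.8 to 118.9) and FDPS (337.2 to 230.9). Several other members rose there, among them TM7SF2 (36.5 to 120.5 TPM). This measure does not depend on the scaling of the columns, but it is not taken relative to the median ratio either. In SKOV3, for example, PMVK had a change of -0.09 and went from 36.4 to 39.4 TPM. The squalene and lanosterol steps went from 948.4 to 1384 TPM in HeyC2 and from 729.4 to 428.5 in SKOV3. The mevalonate steps went from 1988 to 2079 in HeyC2 and from 1016 to 681.6 in SKOV3. The SREBP control genes summed higher in both, from 402.6 to 475.9 and from 261.2 to 358.0. In HeyC2 this rise was mostly that of SREBF2 (181.5 to 249.5 TPM). Relative to the median ratio, their median change was 0.08 in HeyC2 and 0.31 in SKOV3. The 12 proliferation genes summed to 553.2 and 243.4 TPM in HeyC2 and to 2476 and 1132 in SKOV3. They were thus lower in TET1 cells of both lines. At 1.5-fold, 10 of 12 were lower in HeyC2, against 8.43% of all genes, and 11 of 12 in SKOV3, against 16.3%. The median change of the cholesterol enzymes, by contrast, differed in sign between the lines. The part of the proliferation genes in the cholesterol gene changes was not tested.

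**Figure D4:**
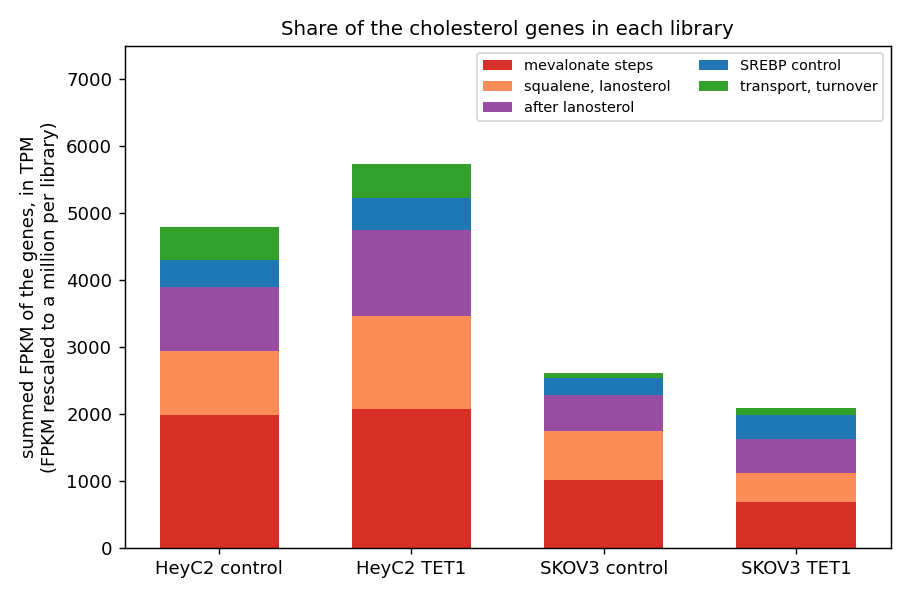
Summed FPKM of the cholesterol genes by role, in TPM (FPKM rescaled to the same total in every library), in the 4 libraries (bars stacked from 0). The bar of HeyC2 TET1 (5734) stands above that of its control (4791), and the bar of SKOV3 TET1 (2092) below that of its control (2615).

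The control libraries showed the level from which each line started. These libraries also enter the changes above, so the comparisons are not independent, and the SKOV3 values were divided by the median ratio between the controls. Of 26 measured genes, 22 were lower in SKOV3 than in HeyC2 control, against 5997 of all 12325 genes measured. Their median log2 ratio was -1.06 against 0.03 for all genes. At 1.5-fold, 19 were lower, 73.1%, against 27.6% of all genes, and 2 were higher, 7.69%, against 29.3%. The widest gaps were STARD4, 15.8-fold lower in SKOV3 (141.5 against 9.53 FPKM before that scaling), and EBP, 14.0-fold lower (48.3 against 3.00 FPKM). Both were well expressed in HeyC2 and low in SKOV3. NPC1, HSD17B7, INSIG1 and FDPS followed, 4.56-, 4.28-, 3.83- and 3.20-fold lower. The exceptions were SC5D, 4.47-fold higher in SKOV3 (7.96 against 46.5 FPKM), and TM7SF2, 2.69-fold higher. The other 5 lay within 1.5-fold, which were FDFT1 (-0.38), SREBF2 (-0.45), GGPS1 (-0.29), MYLIP (0.41) and SCAP (0.20). The 12 proliferation genes went the other way from most enzymes here, all 12 higher in SKOV3 control by 1.5-fold, and their part in this difference was not tested.

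**Figure D5:**
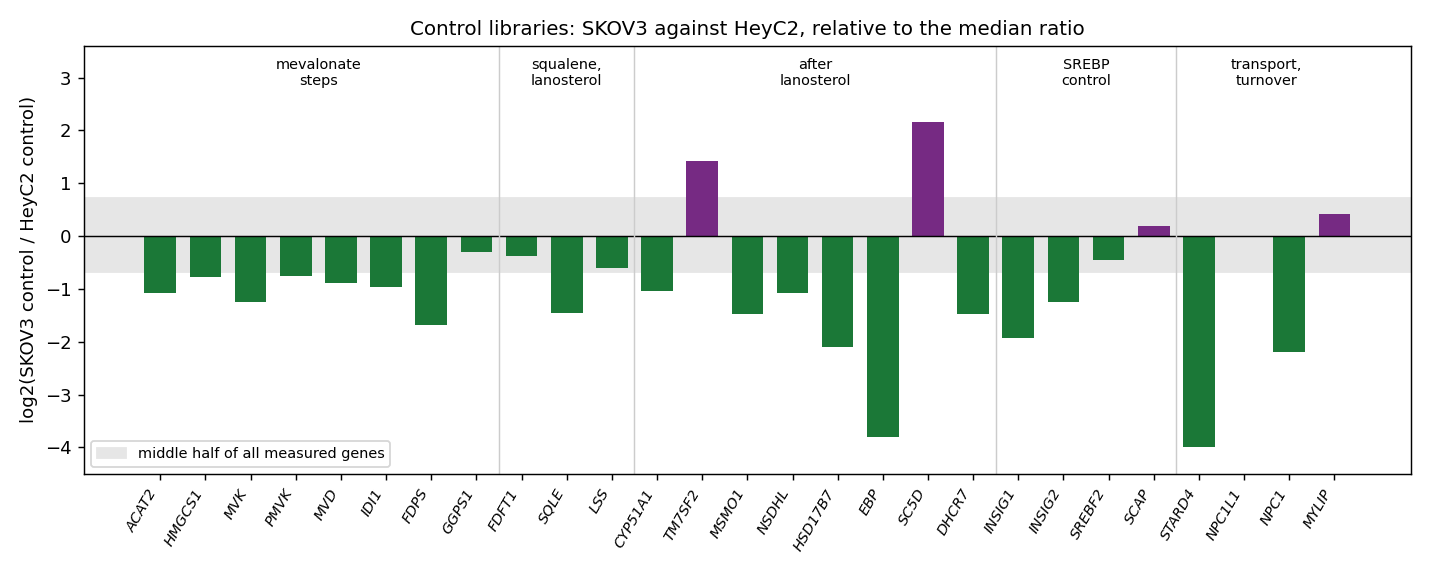
Log2 ratio of SKOV3 control to HeyC2 control, relative to the median ratio, for the 26 measured cholesterol genes, with a grey band from the lower to the upper quartile of all measured genes. Green bars (lower in SKOV3) outnumber purple bars (higher in SKOV3) by 22 to 4, with STARD4 and EBP lowest and SC5D highest.

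To show what the promoters of genes with different courses hold, the 150 bases before the RefSeq transcription start (GRCh38.p14) are printed for 5 of them, 5′ to 3′ on the gene's strand. They were picked after their values were seen. SREBF2 (chr22:41832955-41833104, plus strand) was within 1.5-fold of its control in both lines, TM7SF2 (chr11:65111722-65111871, plus) was higher in both lines, MSMO1 (chr4:165327519-165327668, plus) was higher in HeyC2 and lower in SKOV3, MVK (chr12:109573644-109573793, plus) was lower in SKOV3, and STARD4 (chr5:111512536-111512685, minus) was far lower in SKOV3 control. Capitals mark matches on either strand to the core of a sterol regulatory element (TCACNCCAC, bound by SREBP), the NF-Y box (CCAAT) and the Sp1 box (GGGCGG).
SREBF2: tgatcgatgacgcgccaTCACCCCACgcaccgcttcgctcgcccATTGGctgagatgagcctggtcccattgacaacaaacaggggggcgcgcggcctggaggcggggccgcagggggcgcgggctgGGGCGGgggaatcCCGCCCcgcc
TM7SF2: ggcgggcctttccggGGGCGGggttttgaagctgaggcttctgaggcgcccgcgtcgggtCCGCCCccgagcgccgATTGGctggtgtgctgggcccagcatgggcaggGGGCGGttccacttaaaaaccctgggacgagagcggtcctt
MSMO1: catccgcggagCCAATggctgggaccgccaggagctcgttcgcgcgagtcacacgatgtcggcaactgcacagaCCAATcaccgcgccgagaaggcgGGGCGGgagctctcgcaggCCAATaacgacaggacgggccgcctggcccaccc
MVK: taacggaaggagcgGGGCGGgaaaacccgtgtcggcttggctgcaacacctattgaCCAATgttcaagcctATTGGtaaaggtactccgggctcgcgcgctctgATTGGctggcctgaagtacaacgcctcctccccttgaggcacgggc
STARD4: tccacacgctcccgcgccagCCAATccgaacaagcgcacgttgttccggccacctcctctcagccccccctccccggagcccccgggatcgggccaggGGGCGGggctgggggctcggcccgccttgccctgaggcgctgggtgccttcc
SREBF2 held the sterol element core 133 bases before its start and an NF-Y box 106 bases before it. MSMO1 and MVK had 3 NF-Y boxes each in this stretch, and TM7SF2 and STARD4 had 1. TM7SF2 had 3 Sp1 boxes.

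Over windows of 250 bases before to 50 after the start, the wider group was richer in the NF-Y and Sp1 letters than promoters at large. Promoter windows were found for 24 of the 27 genes, 32 windows in all, and ACAT2, FDFT1 and SQLE had none in the table. The NF-Y box was in 21 of 32 windows (65.6%), against 34.6% of 35116 windows of all genes, and the Sp1 box in 28 (87.5%), against 45.0%. The richness was not particular to this group. Fatty acid synthesis genes under SREBF1 had the Sp1 box in 12 of 14 windows (85.7%) and the NF-Y box in 7 (50%). The exact core of the sterol element was in 1 window (3.13%), that of SREBF2, against 1.13% of all. The promoters of several genes share G and C rich sequence, and windows of the same gene overlap, so these shares are a description.

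The neighbouring pathways were read from lists of related genes. Fatty acid synthesis under SREBF1, the sister factor of SREBF2, was above the median ratio in HeyC2 for 10 of 10 genes (median 0.45), with FASN (0.67) and ELOVL6 (0.97) past 1.5-fold. In SKOV3 its median was 0.00, with SREBF1 itself 1.38 and ELOVL6 0.93 higher and the desaturase FADS2 lower (-0.59). SREBF1 was at 27.04 and 39.8 scaled FPKM in HeyC2 and at 19.2 and 51.6 in SKOV3. In SKOV3, 5 of the 10 genes were above the median ratio and 5 below, from -0.59 to 1.38. The summed level of the list went from 1616 to 1902 TPM in HeyC2, a ratio of 1.18, and from 1011 to 1317 TPM in SKOV3, a ratio of 1.30, against 0.71 for the cholesterol enzymes in SKOV3. These TPM ratios are not relative to the median ratio, on which the list's median in SKOV3 was 0.00.

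The list of oxysterol response and export holds the receptors NR1H2, NR1H3, RXRA and RXRB beside ABCG1 and LPCAT3, so its median is not a measure of responding genes alone. Its median was 0.16 in HeyC2, with 3 of 6 genes above the median ratio, and 0.40 in SKOV3, with 5 of 6 above it. The exporter ABCG1 was listed at 0 in HeyC2 control and at 5.56 scaled FPKM in TET1, from about 107 fragments, and at 0.15 and 1.87 in SKOV3, from about 3 and 39 fragments. NR1H3, an oxysterol receptor that is known to switch on both ABCG1 and MYLIP, was at 1.63 and 3.82 scaled FPKM in HeyC2 (0.87, from about 20 and 44 fragments) and at 4.03 and 5.70 in SKOV3 (0.41). NR1H2, the more abundant of the oxysterol receptors, was at 50.2 and 36.9 scaled FPKM in HeyC2 (-0.43) and at 45.1 and 58.9 in SKOV3 (0.38). RXRB was at -0.20 in HeyC2 and higher in SKOV3 (0.67). LPCAT3, a phospholipid acyltransferase, was lower in HeyC2 (-0.62) and at -0.17 in SKOV3.

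The genes that cleave SREBP or remove sterol enzymes from the endoplasmic reticulum had medians of -0.11 in HeyC2 and -0.46 in SKOV3. Among them the scaffold ERLIN2 (0.86) was higher in HeyC2, and UBE2G2 (-1.001) and ERLIN1 (-0.75) were lower in SKOV3. The proteases MBTPS1 and MBTPS2, which cut SREBP in the Golgi, were within 1.5-fold in both lines, at -0.07 and -0.14 in HeyC2 and 0.40 and -0.34 in SKOV3. Prenyl genes outside the sterol branch had medians of -0.13 and -0.36, with FNTA (0.64) higher and PGGT1B (-0.59) lower in HeyC2 and FNTB (-0.92), PDSS1 (-0.88), ICMT (-0.81) and RABGGTB (-0.74) lower in SKOV3. Sterol storage and movement genes were level, with medians of 0.07 and 0.04. Among them GRAMD1C, a sterol transfer protein, was higher in both lines (1.17 and 0.89), in SKOV3 from only about 12 and 46 fragments. GRAMD1A was higher in SKOV3 (0.93), and SOAT1, which esterifies cholesterol for storage, was lower in SKOV3 (-0.96).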

How the data were processed

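RNA was measured in 4 libraries, 1 per condition, prepared with TruSeq kits and sequenced paired-end on a HiSeq-4000. The authors aligned reads to hg19 with Bowtie2 2.2.6 and quantified genes with RSEM 1.2.17, and the annotation is not given in the sources used here. The deposited values used here are FPKM, in a separate table for each cell line. In both deposited tables the TET1 column was multiplied so that GAPDH equals its control: 99.9% of 1220 distinct values below 40 FPKM in HeyC2 and 99.8% of 2637 in SKOV3 fall on such a grid of the 0.01 FPKM step. The deposited ratios therefore carry any difference in GAPDH between TET1 and control cells, and low values keep their rounding.

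Here TET1 columns were divided by the median ratio of their line before a pseudocount of 1 was added, and genes with a mean below 1 FPKM were left out. The pseudocount makes fold changes of low genes smaller than their ratios. The SKOV3 control was scaled to the HeyC2 control by the same rule. Library sizes of 6600000 to 7320000 fragments give the counting intervals, which are exact binomial (Clopper-Pearson, 95%) and cover counting error only. The fragments were estimated from the FPKM steps of low genes. Steps were tested on simulated data with planted scaling and with large changes planted in well expressed genes. The recovery of changes near 1.5-fold, or in low genes, was not tested.

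All 27 members were named, and of the other lists the genes past 1.5-fold in either line, apart from proliferation and cell type markers, which are given as counts and sums. A few genes of these lists are not reported here. The members and lists were chosen with earlier results of these data known. No test between conditions was made, since each condition of a line has 1 library. A fit over both lines, blocked by line, would leave 1 residual degree of freedom, and it was not run. Alternatives tried were the pseudocount, the filter, the scaling, the fold limit and a correction for GC content and length. Symbols were matched to GENCODE 44 on GRCh37 (23915 of 26506, 90.2%), and promoters came from RefSeq on GRCh38.p14. Python 3.11.15, pandas 2.3.3, scipy 1.17.1 and matplotlib 3.10.9 were used.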

Additional observations from a re-analysis of the deposited data

Results flagged for a closer look

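Changes that differ between the lines were singled out where they pointed in opposite directions, or where the medians of the group did. The difference between the lines was not tested in any of them, since each condition has 1 library. The median difference, SKOV3 change minus HeyC2 change, was -0.62 over the 26 measured genes, from medians of 0.30 in HeyC2 and -0.34 in SKOV3 relative to the median ratio. Over the 19 enzymes it was -0.91, from 0.30 and -0.64. FDFT1 differed by -1.72 (0.59 in HeyC2 and -1.13 in SKOV3), LSS by -1.46 (0.59 and -0.87) and MSMO1 by -1.59 (0.60 and -0.99). These 3 genes passed 1.5-fold upwards in HeyC2 and downwards in SKOV3.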

How the results depend on the processing

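The centring of the TET1 columns mattered most. On the deposited scale without centring, where all genes together had medians of 1.61 (HeyC2) and 0.59 (SKOV3), the members' median was 2.03 in HeyC2 with 26 higher, and the enzymes' median was also 2.03. In SKOV3 on that scale the members' median turned to 0.23 with 8 higher and 1 lower, and the enzymes' median was -0.070. The difference between the lines there had medians of -1.77 for members and -2.02 for enzymes, with 0 higher and 24 lower, and SCAP turned to -0.32. With the deposited values minus the all-gene median, 11 members were higher in HeyC2, with upper-quartile scaling 4 and with a pseudocount of 5, 3, in place of 7. FDFT1, LSS and MSMO1 lie close to the 1.5-fold limit in HeyC2.

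At a 2-fold limit 2 members were higher in HeyC2, 2 higher and 4 lower in SKOV3, and 0 higher and 7 lower in the difference. At 1.2-fold 14 were higher and 3 lower in HeyC2, 7 higher and 14 lower in SKOV3, and 5 higher and 18 lower in the difference. The shares of all genes at these other limits were not computed. Of all values recomputed, 65 of 82 counts stayed within 1.5 times, 60 of 66 medians within 0.2 on the log2 scale, and 779 of 853 gene values within the spread of genes of like expression. The cause of the other shifts was not tested.

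Limits are the single library per condition, against which no difference here can be checked, and low fragment numbers for several genes. Among these are EBP in SKOV3, NPC1L1, HSD17B7 in SKOV3 (about 68 and 92 fragments), TM7SF2, MYLIP and NR1H3 in HeyC2, and ABCG1 in both lines. GRAMD1C (about 12 and 46 fragments) and PDSS1 (about 69 and 34) in SKOV3 are others. A fit of TET1 against control that pairs the libraries by line was not run, since the lines' tables were scaled separately.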
